A study of Saccharomyces cerevisiae with 6 samples.

Results

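The mitochondrial protein import machinery was read here as the 37 genes whose symbols match the names of import components (TOM, TIM, PAM, SAM, MAS, IMP1, IMP2, MIA40, ERV1 and OXA1), out of 5449 S. cerevisiae genes with a probe set of their own. Each of the 37 had a single probe set. By function 34 of them are import components, and 3 carry such a symbol without being known as one. TOM1 encodes a ubiquitin ligase, PAM1 a protein tied to pseudohyphal growth, and TIM11 a subunit of the mitochondrial ATP synthase; they were kept in the list and are described apart.

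RNA was measured on 6 Affymetrix yeast arrays, 3 of P5 and 3 of P5-EM, from independent cultures. P5 is a commercial wine strain. P5-EM descends from it and was isolated from a culture that was treated with the mutagen EMS and then kept in competition for 200 generations at 12 °C. It carries nonsynonymous SNPs in UFD2, YAP6, TAO3, MIT1, GAA1, GIS4, SEC2 and HUA2 and a SNP upstream of ODC2, none of which is an import gene of the list. Both strains fermented SM1, a synthetic grape must with little inositol, at 12 °C, and cells were taken at 96 h in exponential growth. With 1 time point, a difference between strains and a difference in stage of fermentation cannot be told apart. The level of a gene is the log2 of a hybridisation signal that was normalized between arrays, so less RNA of a gene per cell and fewer cells with it cannot be told apart either.

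Nearly all mitochondrial proteins are made in the cytosol and must cross the membranes of the organelle. They enter through the TOM complex of the outer membrane, where receptors bind the precursor and hand it to a channel. From there the routes part. Barrel proteins of the outer membrane pass to the SAM complex, small cysteine-rich proteins are trapped in the intermembrane space by MIA40 and ERV1, and metabolite carriers are led by the small TIM chaperones to the TIM22 complex. Precursors with a cleavable presequence go through the TIM23 complex and are pulled into the matrix by a motor around a mitochondrial Hsp70, where peptidases remove the presequence.

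All 37 genes lay above the background on all 6 arrays. That background is the 95th percentile of the 1747 probe sets designed for another yeast, S. pombe, and it lay between 2.28 and 2.60 against a lowest import gene level of 4.43. P5-EM replicate 1 stood apart from the other P5-EM arrays: across all probe sets tested it correlated with replicates 2 and 3 at r = 0.967 and 0.953, against 0.990 between those 2 arrays and 0.992 to 0.996 among the P5 arrays. These correlations run across genes, which are no replicates, and are given without a p. Where that array decided a call or the sign of a difference, the value without it is given too. Markers of sporulating cells and of both mating types were read beside the import genes. None of the 17 lay at or under the background on every array, but some were near it. SPO11 lay above it on 1 P5 and 1 P5-EM array, and SPR3 and STE3 on 3 and 1. MFA1 lay above it on 3 and 2, and the others on all 6 arrays. The signals of each set were summed on the linear scale, which weights the brightest genes, and the log2 of the sum was taken. For 8 sporulation markers it ran from 7.87 to 7.98 on the P5 arrays and from 7.51 to 7.69 on the P5-EM arrays. For 5 markers of mating type a it was 6.97 to 7.13 and 7.19 to 7.38. For 4 markers of mating type alpha it was 8.98 to 9.04 and 8.78 to 8.93. Differences of P5-EM from P5 were positive for 2 sporulation markers and negative for 6. These counts were 4 and 1 for type a, and 2 and 2 for type alpha. SPS1 and DIT2 were lower in P5-EM (adjusted p = 0.0411 and 0.0182, limma) and MFA2 higher (0.0219). The part of these markers in the results was not tested.

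The genes of the list that passed the test numbered 5, and all were higher in P5-EM: TOM5, TOM20 and TOM22 of the TOM complex, the small chaperone gene TIM13 and the peptidase gene IMP2. Their fold changes lay between 1.45 and 1.83, and no import gene changed 2-fold, a size that with the same test 3.93% of all probe sets reached. A gene passed when its adjusted p was at most 0.05 (limma, two-sided, Benjamini-Hochberg adjustment over 5498 probe sets), at any fold. In the list 5 of 37 genes were called higher (13.5%), where 6.09% of all probe sets were, and 0 of 37 lower, where 7.78% were (13.9% of all probe sets in either direction). At an unadjusted p under 0.05, 12 of 37 genes were higher (32.4%) and 0 lower, where 16.4% and 18% of all probe sets were; counted in either direction, 1889 of 5498 probe sets met that limit, a share close to that of the list. By the methods' t-test with the same adjustment 1 gene was higher and 0 lower. The methods of the study tested genes that differed at least 2-fold, a step that was not taken here. The difference between the list and the background was not tested.

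The list as a whole lay above the rest of the array, by a small amount. Its median log2 fold change was 0.22 and that of all probe sets -0.04. In the list 27 genes had a positive difference and 10 a negative one, against 2550 and 2948 of all 5498 probe sets. Over the 34 import components alone the median was 0.24, with 27 positive and 7 negative. All 3 P5-EM arrays lay above every P5 array at 15 of the 37 genes (40.5%) against 21.1% of all probe sets, and below every P5 array at 2 genes, TOM1 and PAM1 (5.41%), against 24.6%. Measured against the P5 mean of each gene, the list's median was 0.12, 0.23 and 0.24 on P5-EM replicates 1, 2 and 3, and the median of all probe sets was -0.09, -0.01 and 0.02 on the same arrays. Without P5-EM replicate 1 the list's median was 0.26.

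**Figure D1:**
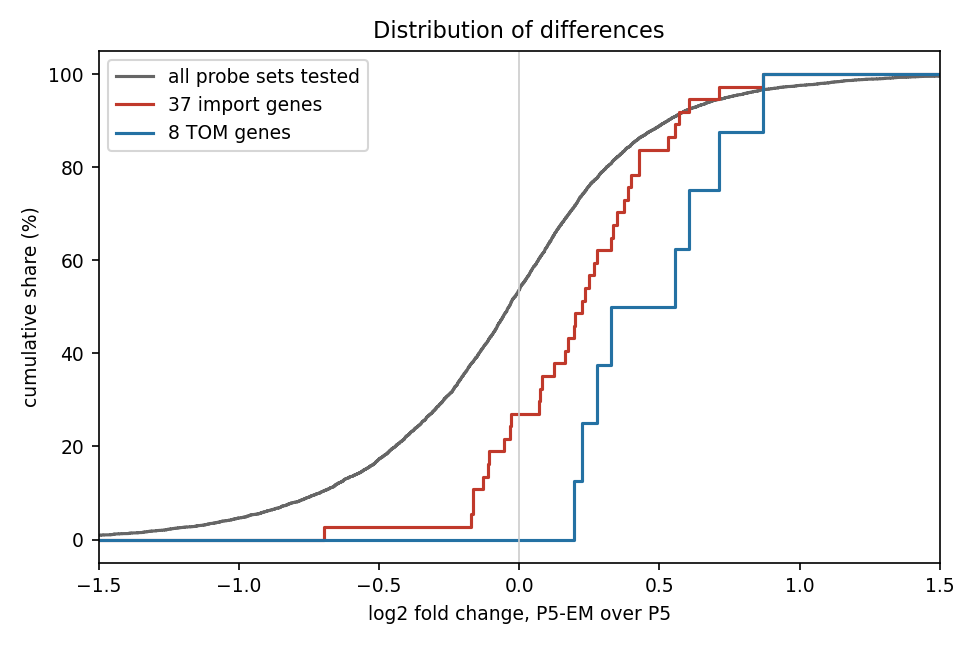
Cumulative share of genes (vertical axis, %) by log2 fold change of P5-EM over P5 (horizontal axis), for all 5498 probe sets tested, the 37 import genes and the 8 TOM genes. The import genes lie to the right of the background over most of the range (median 0.22 against -0.04), and all 8 TOM genes lie above 0.

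The TOM complex holds the channel TOM40, the receptors TOM20, TOM22 and TOM70, the TOM70 relative TOM71, and the small subunits TOM5, TOM6 and TOM7. Its 8 genes had log2 fold changes from 0.20 to 0.87 with a median of 0.44; 3 rose, 0 fell and 5 did not pass. TOM5, whose product passes precursors from the receptors to the channel, had log2 levels of 9.44, 9.41 and 9.24 on the P5 arrays and 10.15, 10.03 and 10.06 on the P5-EM arrays. The strains were clearly apart on every array, with little spread in either. It rose 1.64-fold in P5-EM (log2 fold change 0.71, SE 0.11, adjusted p = 0.0159, limma), the lowest p of the list.

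TOM20, the receptor that binds presequences first, lay at 6.65, 6.88 and 6.57 in P5 and at 8.0, 7.27 and 7.44 in P5-EM. The P5-EM arrays lay above all P5 arrays, and replicate 1 was well above the other P5-EM arrays. The log2 fold change was 0.87 (SE 0.21, adjusted p = 0.0411), and it was 0.66 (adjusted p = 0.0103) without P5-EM replicate 1. TOM22, the receptor around which the complex is organised, lay at 8.52, 8.32 and 8.23 in P5 and at 8.86, 9.04 and 8.98 in P5-EM. Here the P5-EM arrays were close together, replicate 1 was the lowest of them, and the strains did not overlap. TOM22 rose 1.52-fold (log2 fold change 0.61, SE 0.12, adjusted p = 0.0283).

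TOM40, the channel itself, had log2 levels of 9.54, 9.16 and 9.27 in P5 and of 10.19, 9.75 and 9.70 in P5-EM. The strains did not overlap, yet the gene did not pass (log2 fold change 0.55, SE 0.18, 95% interval 0.13 to 0.98, adjusted p = 0.0819), with P5 replicate 1 close to the lower P5-EM arrays. The remaining genes overlapped between strains. TOM70, the receptor for carriers and other hydrophobic precursors, had a log2 fold change of 0.33 (95% interval -0.04 to 0.70) and its relative TOM71 one of 0.22 (-0.22 to 0.66). For TOM6 and TOM7, which shape the assembly of the complex, it was 0.20 (-0.10 to 0.49) and 0.28 (-0.27 to 0.83). TOM7 varied most of these genes among the P5-EM arrays, at 5.78, 6.61 and 6.02.

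**Figure D2:**
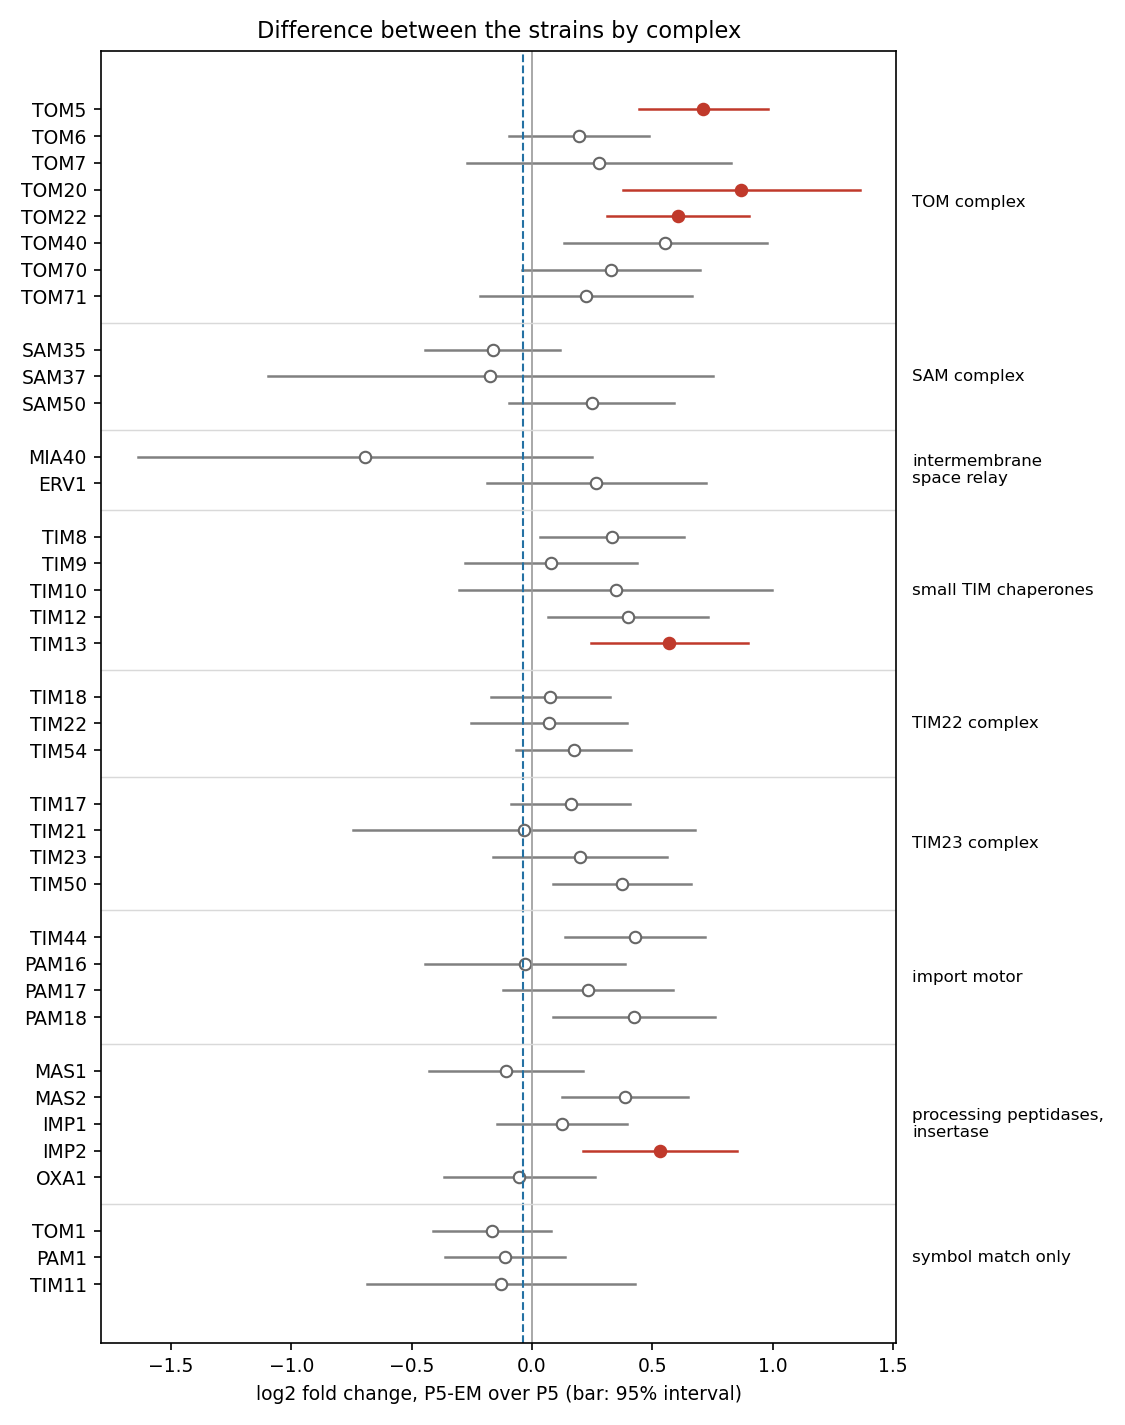
Log2 fold change of P5-EM over P5 (horizontal axis) for each of the 37 genes, ordered by complex, with the 95% interval of the limma fit as a bar; filled red points passed the test, and the dashed line is the median of all probe sets, -0.04. The 5 red points are TOM5, TOM20, TOM22, TIM13 and IMP2, and the widest intervals belong to MIA40 and SAM37.

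The SAM complex, which inserts barrel proteins into the outer membrane, had no gene that passed. The median log2 fold change of its 3 genes was -0.16, and it turned to 0.21 without P5-EM replicate 1, to 0.06 without P5 replicate 1 and to 0.10 after quantile normalization. SAM50, the barrel that forms its core, lay at 9.51, 9.06 and 9.21 in P5 and at 9.58, 9.48 and 9.45 in P5-EM (log2 fold change 0.25, SE 0.14, adjusted p = 0.261). P5 replicate 1 overlapped the P5-EM arrays. SAM35, which recognises the signal of the barrel precursors, had a log2 fold change of -0.16 (95% interval -0.44 to 0.12). SAM37, a peripheral subunit, lay at 6.12, 5.34 and 5.54 in P5 and at 4.64, 5.90 and 5.95 in P5-EM. P5-EM replicate 1 was thus the lowest of all 6 arrays and the other P5-EM arrays lay within the range of P5; the difference was -0.17 with that array and 0.26 without it, and neither passed (adjusted p = 0.773 with it).

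In the disulfide relay of the intermembrane space, MIA40 is the oxidoreductase that folds incoming proteins and ERV1 the oxidase that recharges it. MIA40 had the most negative difference of the list. Its log2 levels were 10.01, 9.82 and 9.86 in P5 and 8.25, 9.44 and 9.91 in P5-EM. Only P5-EM replicate 1 lay far below P5, replicate 2 lay somewhat below it and replicate 3 within its range. The log2 fold change was -0.70 (SE 0.40, 95% interval -1.64 to 0.25, adjusted p = 0.252) and -0.22 without P5-EM replicate 1. ERV1 lay at 6.96, 7.49 and 7.45 in P5 and at 7.41, 7.82 and 7.46 in P5-EM, with overlap (log2 fold change 0.27, 95% interval -0.19 to 0.72).

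The small TIM proteins are chaperones of the intermembrane space that keep hydrophobic precursors soluble; TIM9 pairs with TIM10 and TIM8 with TIM13, and TIM12 sits on the TIM22 complex. All 5 genes had positive differences, from 0.08 to 0.57 with a median of 0.35; 1 rose, 0 fell and 4 did not pass. TIM13 lay at 7.33, 7.28 and 7.08 in P5 and at 7.62, 7.85 and 7.94 in P5-EM. The strains did not overlap, and P5-EM replicate 1 was the closest to P5. It rose 1.49-fold (log2 fold change 0.57, SE 0.14, adjusted p = 0.0411). Its partner TIM8 and the TIM22-bound TIM12 did not overlap between strains either, with log2 fold changes of 0.33 (95% interval 0.04 to 0.63, adjusted p = 0.116) and 0.40 (0.07 to 0.73, adjusted p = 0.1), and neither passed.

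TIM10 depended on a single array. Its log2 levels were 9.19, 8.76 and 8.80 in P5 and 8.67, 9.47 and 9.65 in P5-EM. P5-EM replicate 1 lay below all P5 arrays and replicates 2 and 3 above them. With all arrays its log2 fold change was 0.35 (SE 0.27, adjusted p = 0.392), and without P5-EM replicate 1 it was 0.64 and passed (adjusted p = 0.0205). TIM9 showed the same order of arrays at a smaller size, at 6.48, 6.85 and 6.96 in P5-EM against 6.65 to 6.74 in P5 (log2 fold change 0.08, 95% interval -0.28 to 0.44).

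**Figure D3:**
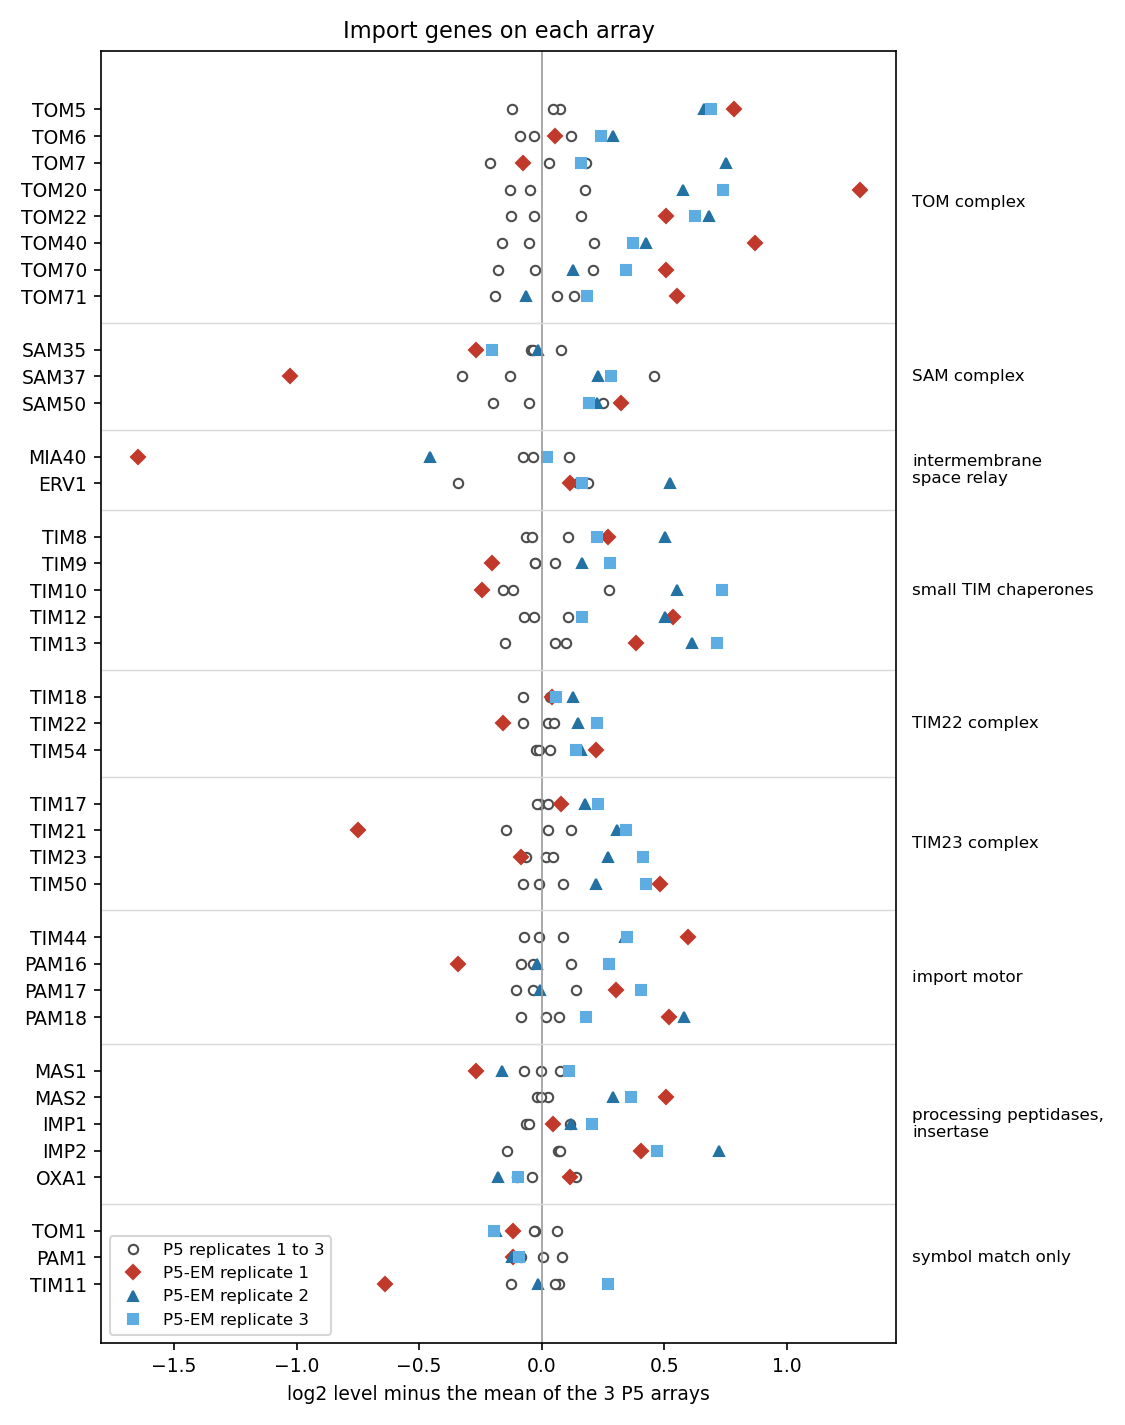
Log2 level of each of the 37 genes on each of the 6 arrays, as the difference from the mean of the 3 P5 arrays (horizontal axis), ordered by complex; open circles are P5, and the diamond, triangle and square are P5-EM replicates 1, 2 and 3. P5-EM replicate 1 lies far left at MIA40, SAM37, TIM21 and TIM11 and far right at TOM20 and TOM40.

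The TIM22 complex, which inserts carriers into the inner membrane, showed small differences between strains. Its 3 genes had log2 fold changes of 0.07 to 0.17, and 0 passed. TIM54, a subunit of the complex, lay at 9.08, 9.02 and 9.03 in P5 and at 9.27, 9.21 and 9.19 in P5-EM (log2 fold change 0.17, SE 0.10, 95% interval -0.07 to 0.41, adjusted p = 0.257). The strains did not overlap there, since the arrays of each strain were close together. The channel gene TIM22 had 0.07 (95% interval -0.25 to 0.40) and TIM18 0.08 (-0.17 to 0.32). Each of these intervals lay within 0.41 of no change on the log2 scale.

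In the TIM23 complex, the presequence gate of the inner membrane, 0 of 4 genes passed and the median log2 fold change was 0.18, or 0.32 without P5-EM replicate 1. TIM50, the receptor that takes over precursors from the outer membrane, lay at 8.98, 8.88 and 8.81 in P5 and at 9.37, 9.11 and 9.31 in P5-EM. The strains did not overlap (log2 fold change 0.37, SE 0.12, 95% interval 0.09 to 0.66, adjusted p = 0.083). The channel genes TIM23 and TIM17 had differences of 0.20 (-0.16 to 0.56) and 0.16 (-0.09 to 0.41). TIM21, which links the complex to the outer membrane and to the respiratory chain, lay at 8.14, 7.88 and 8.05 in P5 and at 7.27, 8.33 and 8.37 in P5-EM. P5-EM replicate 1 was below and the other P5-EM arrays above every P5 array, so that the difference was -0.03 with it and 0.33 without it; neither passed.

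The motor that pulls precursors into the matrix was represented by TIM44, which tethers the Hsp70 to the channel, by the J protein PAM18, by its partner PAM16 and by PAM17. Of the 4 genes 0 passed, with a median log2 fold change of 0.33. TIM44 lay at 9.40, 9.56 and 9.46 in P5 and at 10.07, 9.81 and 9.82 in P5-EM, apart on every array (log2 fold change 0.43, SE 0.12, adjusted p = 0.0626). Without P5-EM replicate 1 it was smaller, 0.34, and just passed (adjusted p = 0.0486). PAM18 also did not overlap between strains (0.43, 95% interval 0.09 to 0.76, adjusted p = 0.0892), whereas PAM16 and PAM17 did (-0.03, -0.45 to 0.39, and 0.23, -0.12 to 0.58). PAM16 turned to 0.13 without P5-EM replicate 1.

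Of the 4 genes for peptidases that trim imported proteins and the gene of the insertase, 1 rose, 0 fell and 4 did not pass. IMP2, a catalytic subunit of the inner membrane peptidase, lay at 7.82, 7.61 and 7.83 in P5 and at 8.16, 8.48 and 8.22 in P5-EM. The strains did not overlap, and the gene rose 1.45-fold (log2 fold change 0.53, SE 0.13, adjusted p = 0.0458). IMP1, the other catalytic subunit, had a difference of 0.12 (95% interval -0.15 to 0.39). OXA1, which inserts proteins into the inner membrane from the matrix side, had -0.05 (-0.37 to 0.26).

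MAS1 and MAS2 encode the subunits of the matrix processing peptidase, which removes presequences. MAS2 lay at 9.40, 9.35 and 9.37 in P5 and at 9.88, 9.66 and 9.74 in P5-EM, without overlap (log2 fold change 0.39, SE 0.11, adjusted p = 0.0613). MAS1 lay at 9.44, 9.37 and 9.30 in P5 and at 9.10, 9.21 and 9.48 in P5-EM, with overlap (-0.11, 95% interval -0.43 to 0.21). The difference of MAS2 minus that of MAS1 was 0.49; the pair was set side by side after the values had been seen, and this was not tested. Without P5-EM replicate 1, MAS2 had a difference of 0.33 and just passed (adjusted p = 0.0499).

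The 3 genes that share only their symbol with the machinery did not pass. With all arrays their differences were negative. TOM1 lay at 11.10, 11.09 and 11.19 in P5 and at 11.01, 10.94 and 10.93 in P5-EM (log2 fold change -0.17, SE 0.10, adjusted p = 0.287), below P5 on every array. PAM1 had -0.11 (95% interval -0.36 to 0.14). TIM11, which belongs with the ATP synthase, had -0.13 (-0.69 to 0.43), with P5-EM replicate 1 at 7.90 and the other P5-EM arrays at 8.53 and 8.82, against 8.42 to 8.62 in P5. Without P5-EM replicate 1 its difference turned to 0.13.

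**Figure D4:**
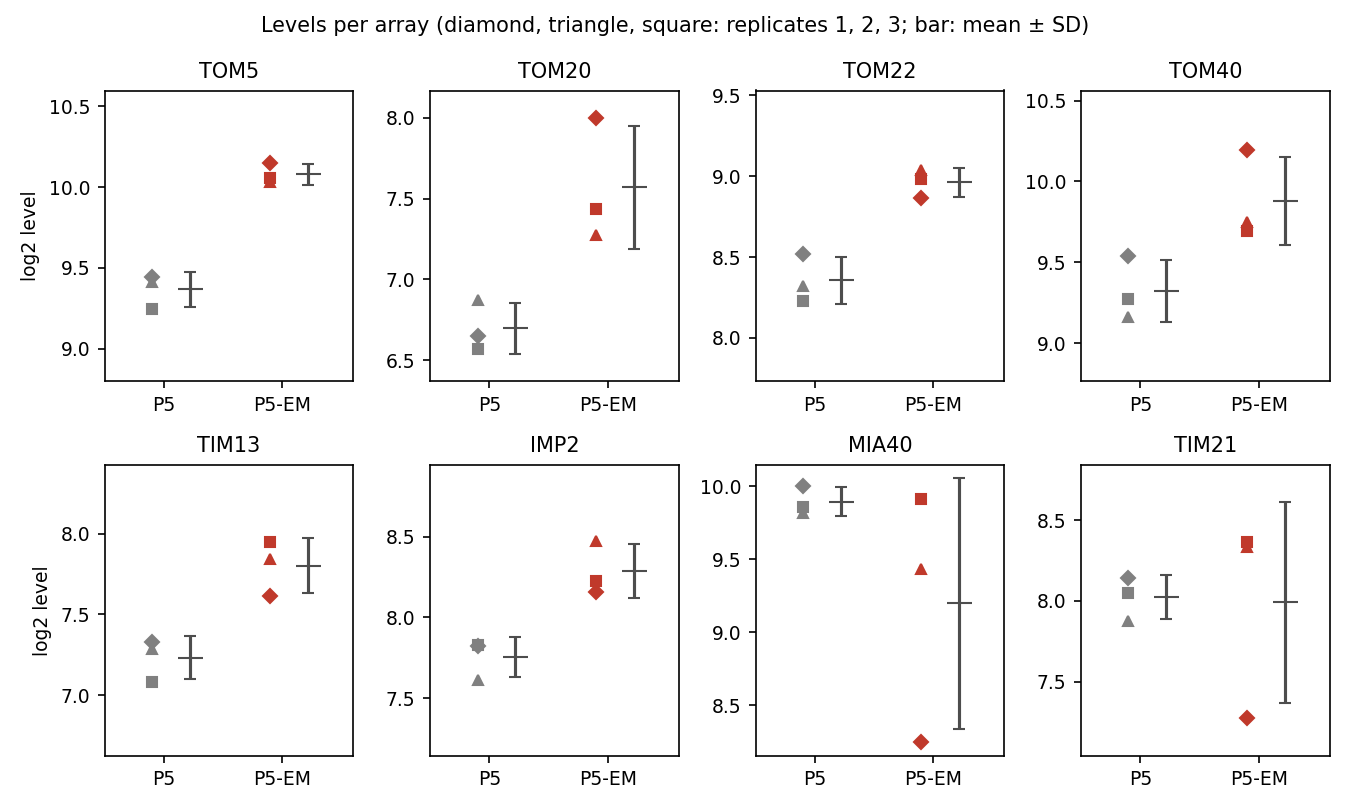
Log2 level (vertical axis, a separate range for each gene) of 8 import genes on each array of P5 and P5-EM, with the mean ± SD of 3 arrays beside the points. TOM5, TOM20, TOM22, TOM40, TIM13 and IMP2 do not overlap between strains; at MIA40 and TIM21, P5-EM replicate 1 (diamond) lies far below the other P5-EM arrays.

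The companions of the machinery were read from a list of 20 genes that work with it, from the matrix chaperones to further peptidases and insertases. Of these 4 rose, 0 fell and 16 did not pass, where 6.09% of all probe sets were called higher and 7.78% lower. The median log2 fold change was 0.09. All 3 P5-EM arrays lay above every P5 array at 7 of the 20 genes and below at 4. Over all probe sets these shares were 21.1% and 24.6%. The difference between the companions and the background was not tested. COX18, which inserts a part of a cytochrome oxidase subunit into the inner membrane and is a relative of OXA1, lay at 5.42, 5.63 and 5.47 in P5 and at 6.84, 6.46 and 6.54 in P5-EM. It was the largest rise among the import genes and companions, 2.16-fold (log2 fold change 1.11, SE 0.14, adjusted p = 0.0108), and was far from overlap. MBA1, which binds the mitochondrial ribosome to that membrane, lay at 5.59, 5.45 and 5.41 in P5 and at 6.11, 6.04 and 6.30 in P5-EM, also without overlap (log2 fold change 0.67, SE 0.12, adjusted p = 0.0218).

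MGR2, a further subunit of the TIM23 complex, lay at 8.60, 8.69 and 8.77 in P5 and at 9.25, 9.29 and 9.14 in P5-EM (log2 fold change 0.54, SE 0.11, adjusted p = 0.0275). HSP10, the partner of the matrix chaperonin HSP60, lay at 8.42, 8.35 and 8.52 in P5 and at 8.93, 9.09 and 8.91 in P5-EM (0.55, SE 0.11, adjusted p = 0.0294). Both were apart on every array. With each array left out in turn, MBA1, MGR2 and HSP10 passed in 2 of 6 fits, without P5-EM replicate 1 or without P5-EM replicate 3, and COX18 in 4 of 6, all but those without P5 replicate 2 or P5 replicate 3 (adjusted p = 0.0655 and 0.0735, limma). The Hsp70 of the motor, SSC1, had 0.08 (95% interval -0.17 to 0.34) and did not pass. The companions' most negative difference was -0.89, at the J protein gene MDJ1 (adjusted p = 0.119, limma). MDJ1 lay at 8.71, 9.96 and 9.98 in P5-EM, of which replicate 1 was again the lowest, against 10.40 to 10.51 in P5. All 3 P5-EM arrays thus lay below every P5 array, and the difference was -0.47 without P5-EM replicate 1. YME1, MIM1 and ICP55 also lay below P5 on every array (log2 fold changes -0.30, -0.17 and -0.20) and did not pass.

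The import genes, like the array as a whole, varied less among the arrays of P5 than among those of P5-EM. Over the list the SD among arrays had a median of 0.11 for P5 and of 0.19 for P5-EM (0.12 and 0.22 over all probe sets), and 28 of 37 genes had the larger SD in P5-EM (75.7%, against 74.1% of all probe sets). P5-EM replicate 1 lay below both other P5-EM arrays at 20 genes, between them at 4 and above both at 13, or 54.1%, 10.8% and 35.1%; over all probe sets these shares were 49.8%, 14.4% and 35.8%. Compared with the mean of replicates 2 and 3, it was lowest at MIA40, SAM37, TIM21, TIM10 and TIM11, by -1.43, -1.28, -1.08, -0.89 and -0.77 on the log2 scale. It was highest at TOM20, TOM71 and TOM40, by 0.64, 0.49 and 0.47. The import genes thus spread on that array in both directions, in shares near those of the whole array.

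The import genes of the list that rose were among its shorter ones. All 5 had a gene length of at most 600 bp in the R64 annotation of RefSeq (TOM5 153, TIM13 318, TOM22 459, IMP2 534 and TOM20 552), a boundary that was set after the values had been seen and that 18 of the 37 genes met. In the list 27.8% of the 18 shorter genes and 0% of the 19 longer ones were called higher, and 0% of either lower. Over all probe sets, 7.80% of those at most 600 bp long were called higher and 3.79% lower, against 5.75% and 8.59% of the longer ones. The median log2 fold change was 0.31 for the 18 shorter and 0.17 for the 19 longer import genes, and 0.00030 and -0.04 over all probe sets. The part of length in the calls was not tested.

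The calls of the 5 import genes needed most of the arrays. Without P5-EM replicate 1 all 5 remained called, with TIM10, TIM44 and MAS2 in addition, making 8 of 37 genes where 12.2% of all probe sets were called higher; 0 were lower, where 14.4% were. Without P5-EM replicate 3, TOM5, TOM20 and TOM22 remained, TIM12 and PAM18 were called in addition, and TIM13 and IMP2 were lost (adjusted p = 0.0658 and 0.0564); 8.42% of all probe sets were then called higher. Without P5 replicate 1, P5 replicate 2, P5 replicate 3 or P5-EM replicate 2 no import gene passed, and the lowest adjusted p in the list was 0.0536, 0.0809, 0.093 and 0.0631. Over the whole array 140, 0, 0 and 99 probe sets passed in these fits, against 763 with all arrays. The log2 fold changes stayed positive over all 6 fits and ran from 0.65 to 0.75 for TOM5, from 0.66 to 1.02 for TOM20, from 0.54 to 0.69 for TOM22, from 0.50 to 0.66 for TIM13 and from 0.44 to 0.59 for IMP2.

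**Figure D5:**
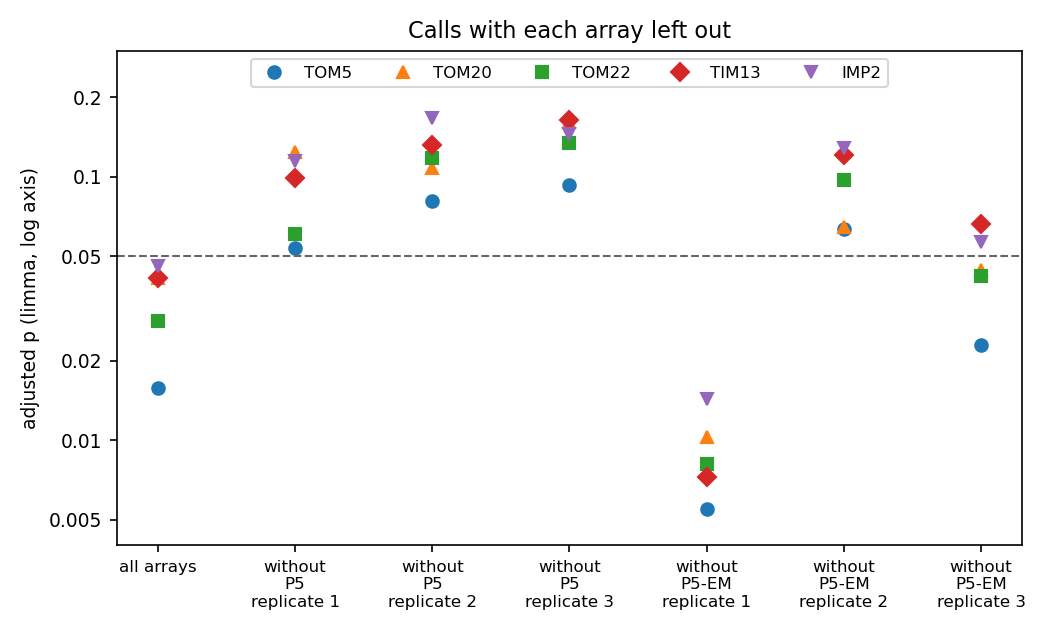
Adjusted p from limma (vertical log axis) of the 5 called import genes with all arrays and with each array left out in turn (horizontal axis); the dashed line is 0.05. All 5 lie under the line with all arrays and without P5-EM replicate 1, and all 5 lie above it without any 1 of the P5 arrays or P5-EM replicate 2.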

How the data were processed

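RNA of 3 P5 and 3 P5-EM cultures (25 ng per sample, amplified over 17 cycles) was hybridised to GeneChip Yeast Genome 2.0 arrays. The authors made intensity files with GCOS and obtained log2 expression estimates with RMA in Partek Genomics Suite 6.6. The deposited log2 values were used unchanged. Of 10928 probe sets, tests covered the 5498 annotated with exactly 1 gene of S. cerevisiae, 1747 S. pombe probe sets gave the background, and 213 controls and 3470 unlisted probe sets were left out. Of the import list 37 of 37 symbols matched RefSeq.

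The strains were compared in R 4.3.3 with lmFit and eBayes of limma 3.58.1, without covariates, and the test was checked on simulated data. Array number (3 per strain) limits the precision. Import genes were named by rule: all by complex, with per-array values where they passed, where the strains did not overlap and differed by at least 0.5 (log2), or where the adjusted p was the lowest of a complex, and companions where they passed. Further per-array values (SAM37, ERV1, TIM10, TIM21, MAS1, MAS2, TIM11, TOM7, TIM9, MDJ1) were added after they were seen. So were the statistics of SSC1, MDJ1, YME1, MIM1 and ICP55. The members and lists were chosen with earlier results of these data known. Alternatives were the methods' t-test, other moderation, weights, normalizations and filters, a replicate block, and each array left out. No sequence was used.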

Additional observations from a re-analysis of the deposited data

How the results depend on the processing

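The 5 higher and 0 lower import genes were the same genes with robust eBayes, quantile normalization, median centring, the filter on low values and the mean of the probe sets of a gene, and without TOM1, PAM1 and TIM11. With an intensity trend 7 were higher, with 341 higher and 414 lower over the array. By the methods' t-test, adjusted over all probe sets, 1 was higher (TOM5), while 61 probe sets were higher and 102 lower over the array (19 and 36 at 2-fold). With array weights 22 import genes were higher and 2 lower, with 1583 and 1639 over the array (151 higher at 2-fold), and TIM21 turned to 0.34 (adjusted p = 0.0138). That fit of weights did not converge and gave P5-EM replicate 2 a share of 96.8% of its strain's weight. Quantile normalization gave 116 probe sets higher and 123 lower at 2-fold, against 73 and 143. The replicate block gave 0 import genes higher, with 83 higher and 125 lower over the array; of the 4 companions that rose, COX18 still passed and the others did not (adjusted p = 0.046, limma). By the methods' t-test COX18 and MGR2 passed (both 0.049), and MBA1 and HSP10 did not (0.0559 and 0.0529). The labels number the arrays 1 to 3 in each strain and do not say whether equal numbers were paired. Deviations of same-numbered arrays from their strain's mean correlated across genes at -0.03, -0.28 and -0.02. With 3 arrays per strain and P5-EM replicate 1 apart from the others, these values cannot decide whether the arrays were paired.

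With each array left out, 0 to 8 import genes were higher and 0 lower, and their median log2 fold change ran from 0.16 to 0.26. Over the array 0 to 669 probe sets were higher and 0 to 793 lower, and at 2-fold 0 to 187 and 0 to 232. All 8 TOM genes kept a positive difference in every alternative but array weights, where 7 did. The cause of these changes was not tested.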
